A study of Mus musculus with 10 samples.

Results

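The region described here is the 5′ part of the mouse 28S rRNA, the RNA of the large ribosomal subunit. It was chosen by position alone. It runs from position 8123 to position 9699 of the 45S pre-rRNA as numbered in the deposited tables, and a 28S number is the 45S number minus 8122. This gave 1577 positions of 13591 in the tables, which hold the 45S pre-rRNA and the U2 small nuclear RNA. All 1577 positions are accounted for below. No rRNA sequence was used here, so the bases at these positions are not named and the start of the mature 28S was not checked against a sequence.

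The measurement was RiboMeth-seq on 10 libraries in 5 groups of 2, which the labels call biological replicates. The first group was untreated mouse embryonic stem cells (ESCs). The other 4 groups were neurons induced from such cells by doxycycline-driven Ngn2 and given an antisense oligonucleotide (ASO) by free uptake at 10 uM, with RNA taken 72 to 96 hours later. In the Snord101 set, an ASO against the small nucleolar RNA (snoRNA) Snord101 was compared with a non-targeting ASO, and in the Snord89 set an ASO against Snord89 was compared with its own non-targeting ASO group. The libraries of each group are called A and B here, as in their titles. All 4 neuron groups received an ASO, so no group shows neurons without one. The tables hold rRNA and U2 positions only, so neither the neuronal identity of the cells nor the level of the targeted snoRNA was checked. The Snord101 ASO was a gapmer of 20 bases, with a central stretch of 10 bases between wings of 5 modified bases on each side. The Snord101 ASO is shown because it defines a knockdown group, and capitals mark the central stretch, 5′ to 3′.
Snord101 ASO: gggtaTCCGACAATTcaagt

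Ribosomal RNA carries many 2′-O-methyl groups. Most are placed by a small particle in which a box C/D snoRNA pairs with the rRNA and the methyltransferase fibrillarin modifies the ribose opposite a fixed point of the snoRNA. A 2′-O-methyl group protects the neighbouring bond from alkaline hydrolysis, so few sequenced fragments begin or end there and the site appears as a gap among read ends. Strong structure or an easily broken bond also changes the number of ends, so a gap is not by itself a methylated site.

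The score used throughout is 1 minus the ends at a position divided by a weighted mean of the ends at the 6 positions on either side, called the flanking mean here. A score near 1 is a gap, and a score of 0 means that the position had as many ends as its neighbours or more. The end ratio is the same quotient of ends over the flanking mean. Only 5′ ends were counted for the ESCs, and 5′ plus 3′ ends for the neurons. ESC and neuron scores are therefore different measures and were given side by side without a test.

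The region held between 16.7% and 18.9% of the 45S ends of a library. This came to 3171653 and 2697716 ends in the ESC libraries and to between 13580916 and 26481807 ends in the 8 neuron libraries. The median flanking mean was 300.6 to 355.7 ends in ESCs and 4496 to 11723 ends in neurons. In the ESC libraries 71 of the 1577 positions had no end in at least 1 library, and 39 of them had none in both. No position was without ends in any neuron library.

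Coverage along the region was uneven. In windows of 100 positions, the median position of 28S 1 to 100 had 4493 and 4714.5 ends in the ESC libraries and from 20560.5 to 34353 in the neuron libraries. The densest window was not the same in every library, and was 28S 301 to 400 in ESC library A and 28S 1301 to 1400 in the Snord101-set controls. The sparsest window in all 10 libraries was 28S 601 to 700, with 10.5 and 7.5 ends in ESCs, 1827 and 2024 in the Snord101-set controls and 565 and 693.5 in the Snord89-set controls. In that window the mean absolute difference in score between the ESC libraries was 0.129, against 0.0525 over the whole region. Scores between 28S 601 and 700 are thus the least precise of the region in ESCs, and 27 of the ESC gaps counted below lie there.

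**Figure D1:**
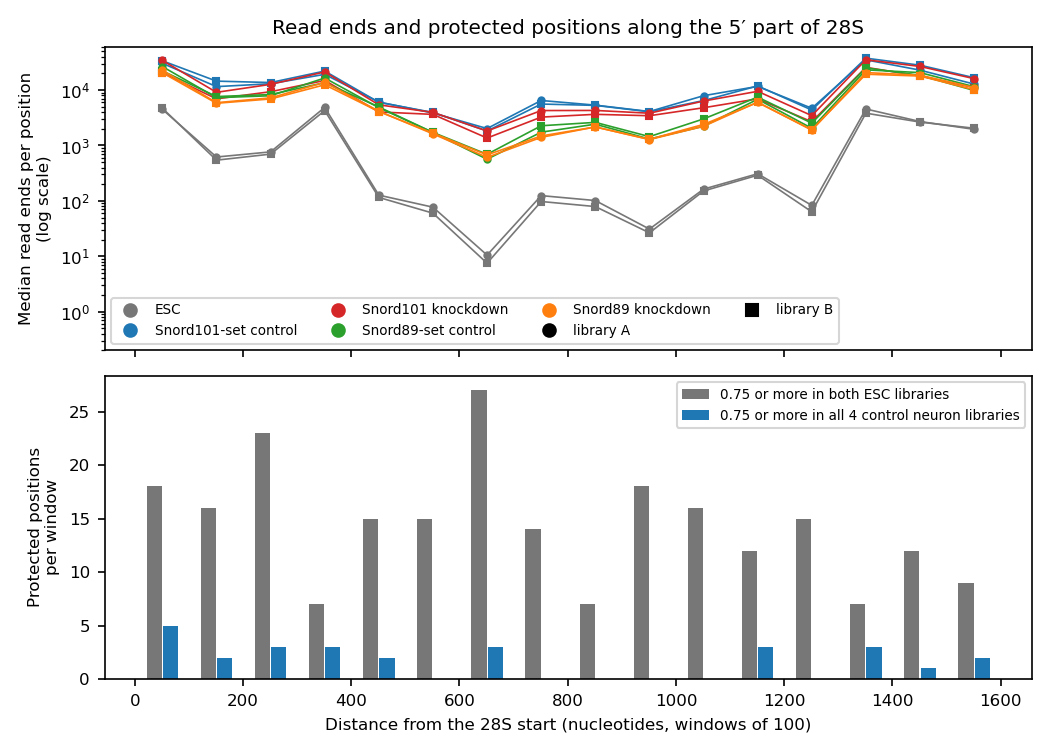
Median read ends per position (log scale, one line per library) and number of protected positions (bars) in windows of 100 positions along the 5′ part of 28S. The lowest coverage lies at 601 to 700, where the ESC libraries have medians of 10.5 and 7.5 ends and the ESC bar reaches 27 positions.

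Agreement between the libraries of a group was closest in the Snord89 knockdown, with a mean absolute score difference of 0.0237 over the 1577 positions. It was 0.0291 in the Snord101 knockdown and 0.0305 in the Snord89-set controls. The Snord101-set controls differed most among the neuron groups, by 0.0529. A chi-square over the positions, run only to find a library deposited again under another name, was at least 29.9 times its degrees of freedom in every group, so each library was counted as its own replicate.

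At its upstream edge the region borders a very strong peak. At 28S 0, just outside, there were 608332 and 466474 ends in the ESC libraries and up to 2283100 in a neuron library, and the score was 0 in all 10 libraries. At 28S 1, just inside, the score lay between 0.748 and 0.879. The peak enters the flanking means of the first 6 positions, so their scores describe the edge as much as the positions themselves. At the other edge, 28S 1577 scored 0.807 and 0.717 in ESCs and 0.404 to 0.538 in neurons, and 28S 1578, just outside, scored 0.348 and 0.236 in ESCs and 0.291 to 0.395 in neurons.

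A score of 0.9 or more in all 8 neuron libraries was found at 7 positions, 28S 397, 28S 399, 28S 1140, 28S 1335, 28S 1347, 28S 1438 and 28S 1562. They made up 0.444% of the region, whereas 48 positions, or 1.53%, met the same rule in the rest of 28S and 36, or 1.94%, in 18S. The difference between regions was not tested. The 7 positions were unevenly spread. The pair 28S 397 and 28S 399 are 2 nucleotides apart, 28S 1335 and 28S 1347 are 12 apart, and 741 nucleotides without such a position separate 28S 399 from 28S 1140.

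At 28S 397 (45S 8519) the neuron scores were 0.995, 0.992, 0.995, 0.995, 0.993, 0.991, 0.992 and 0.989, taken in the order Snord101 control A and B, Snord101 knockdown A and B, Snord89 control A and B and Snord89 knockdown A and B. The ESC libraries scored 0.983 and 0.984. Both ESC values lay below the neuron values, which spanned 0.989 to 0.995.

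At 28S 399 (45S 8521) the neuron scores in the same order were 0.974, 0.972, 0.980, 0.983, 0.964, 0.957, 0.965 and 0.958, with 0.918 and 0.908 in ESCs. The 4 libraries of the Snord101 set were all above the 4 of the Snord89 set. Between these gaps lies 28S 398, a peak with a mean end ratio of 2.1 in neurons, so each gap is a single position wide.

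At 28S 1335 (45S 9457) the neuron scores were 0.977, 0.972, 0.978, 0.980, 0.970, 0.967, 0.973 and 0.960, with 0.960 and 0.961 in ESCs. This gap is also 1 position wide in the neuron libraries, where both direct neighbours had a mean score of 0. At 28S 1347 (45S 9469) they were 0.996 in all 4 Snord101-set libraries and 0.993, 0.991, 0.992 and 0.989 in the Snord89 set, against 0.905 and 0.883 in ESCs. Both ESC values were below every neuron value at 28S 1347.

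At 28S 1438 (45S 9560) scores ran from 0.984 to 0.990 in neurons, with 0.993 and 0.992 in ESCs. At 28S 1562 (45S 9684) they ran from 0.990 to 0.994 in neurons, with 0.983 in both ESC libraries. At 28S 1140 (45S 9262) the neuron range was 0.974 to 0.997, and the ESC libraries scored 0.983 and 0.986. This position lies directly after 28S 1139, the highest peak of the region, which raises its flanking mean.

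None of these 7 positions was called in either knockdown by edgeR's quasi-likelihood test, which compared the ends at a position relative to its flanking mean, with p-values adjusted over the whole table by the Benjamini-Hochberg method and a threshold of 0.05. With 2 libraries against 2 this does not show that they stayed the same. A score near 1 also moves little when the few ends of a gap change by a large factor. The mean score difference (knockdown minus control) lay between -0.00079 and 0.0092 in the Snord101 set and between -0.010 and 0.0012 in the Snord89 set, whereas the fitted changes in end ratio were wider. They ran from -0.59 at 28S 399 (SE 0.20, edgeR adjusted p = 0.219) to 0.07 at 28S 1438 on the log2 scale in the Snord101 knockdown. In the Snord89 knockdown they ran from -0.06 at 28S 1438 to 1.70 at 28S 1140 (SE 0.72, edgeR adjusted p = 0.395). In each set 1 of the 7 had an unadjusted p under 0.05. The score of 28S 1140 in the Snord89 knockdown rested on 39 ends in library A and 276 in library B, a difference between replicates of 0.0224 in score.

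Another 8 positions completed the 15 with the highest minimum over all 10 libraries, among positions with at least 100 flanking ends everywhere. These are 28S 26, 28S 121, 28S 191, 28S 226, 28S 281, 28S 385, 28S 1154 and 28S 1545. At 28S 385 the ESC scores were 0.984 and 0.982 and the neuron scores ran from 0.889 to 0.922. At 28S 1154 the order was the other way, with 0.770 and 0.769 in ESCs and 0.866 to 0.918 in neurons. At 28S 121 the Snord101 set scored 0.908, 0.892, 0.889 and 0.907 and the Snord89 set 0.808, 0.822, 0.789 and 0.798, so that the sets did not overlap whereas the ASO groups of a set lay close together.

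**Figure D2:**
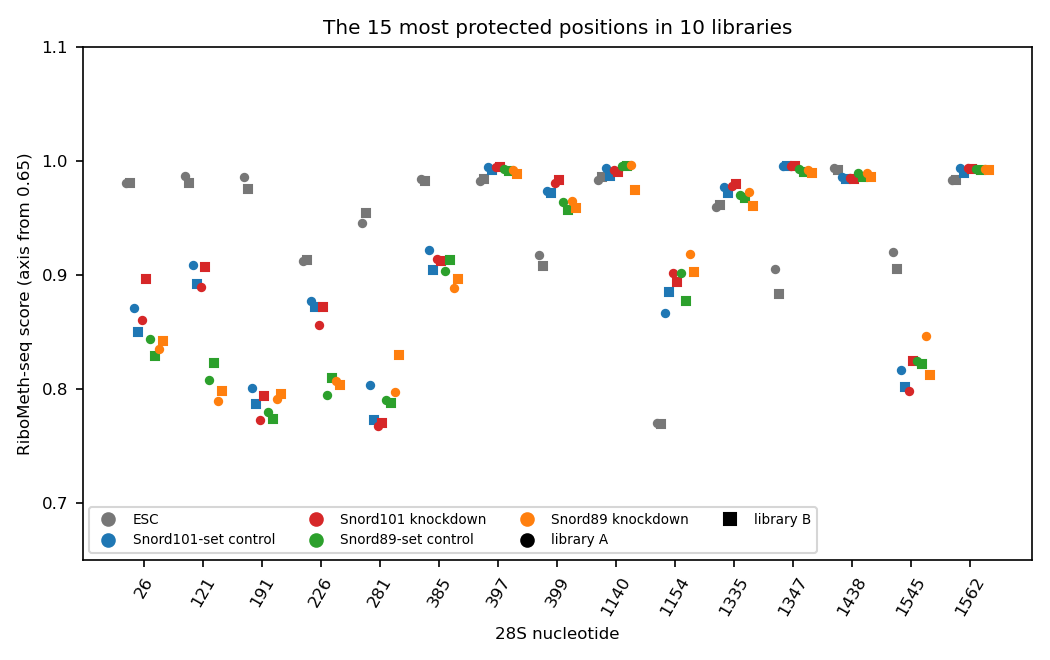
RiboMeth-seq score (axis from 0.65) of the 15 positions with the highest minimum score over 10 libraries. Each point is a library, colours are groups and shapes are library A or B. The 7 positions 397, 399, 1140, 1335, 1347, 1438 and 1562 stay at 0.957 or above in all neuron libraries, and 28S 121 shows the Snord101 set above the Snord89 set.

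The control groups of the 2 neuron sets carry the same label, a non-targeting ASO, but differed at many positions, of which 28S 1337 had the largest log2 end ratio. At 28S 1337 (45S 9459) the Snord89-set controls scored 0.984 and 0.980 and the Snord89 knockdown 0.988 and 0.978. The Snord101-set controls scored 0.736 and 0.784 and the Snord101 knockdown 0.703 and 0.614. The ESC libraries scored 0.997 and 0.996. The 4 Snord101-set libraries were therefore low and the other 6 high, with no overlap.

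The ends behind these scores were plentiful in neurons. At 28S 1337 there were 374 and 562 ends in the Snord89-set controls and 259 and 448 in the Snord89 knockdown, whereas the Snord101-set controls had 13290 and 9678 and the Snord101 knockdown 12541 and 11704. The ESC libraries had 10 and 13 ends. The flanking mean was at least 20693 in every neuron library and 3085 or more in ESCs.

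The mean score at 28S 1337 was 0.760 ± 0.034 (SD, n = 2) in the Snord101-set controls and 0.982 ± 0.0026 (SD, n = 2) in the Snord89-set controls. The log2 end ratio of the Snord101-set against the Snord89-set controls was 3.75 (SE 0.26 and edgeR adjusted p = 4.99e-05). It ranked 1 of 1541 tested 45S positions by size and by adjusted p. The call held in 20 of 20 alternatives, with adjusted p from 1.11e-53 to 0.00196, among them the fits without each of the 8 neuron libraries in turn.

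No other position of the region scored 0.9 or more in all 4 libraries of one neuron set and under 0.8 in all 4 of the other. Over the whole 45S 2 positions did so in this direction and 1 in the opposite direction. The sets overlapped at the direct neighbours of 28S 1337, whose scores of about 0 hide their ends. At 28S 1336 the end ratio ran from 1.02 to 1.20 in the Snord101 set and from 1.12 to 1.29 in the Snord89 set. At 28S 1338 it ran from 1.06 to 1.44 and from 1.13 to 1.30. Between the control groups neither was called without a score minimum (log2 end ratio -0.10 and -0.03, edgeR adjusted p = 0.425 and 0.796). The score at 28S 1335 lay between 0.960 and 0.980 in all 8 neuron libraries.

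Within the Snord101 set, the knockdown libraries scored lower at 28S 1337 than both controls, by 0.10 in the mean. That difference was 0.51 ± 0.15 (SE) in log2 end ratio and was not called (edgeR adjusted p = 0.177). The Snord89 knockdown gave a log2 end ratio of -0.09 (edgeR adjusted p = 0.910), and the test of the difference between the knockdowns gave an adjusted p of 0.668 by edgeR.

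**Figure D3:**
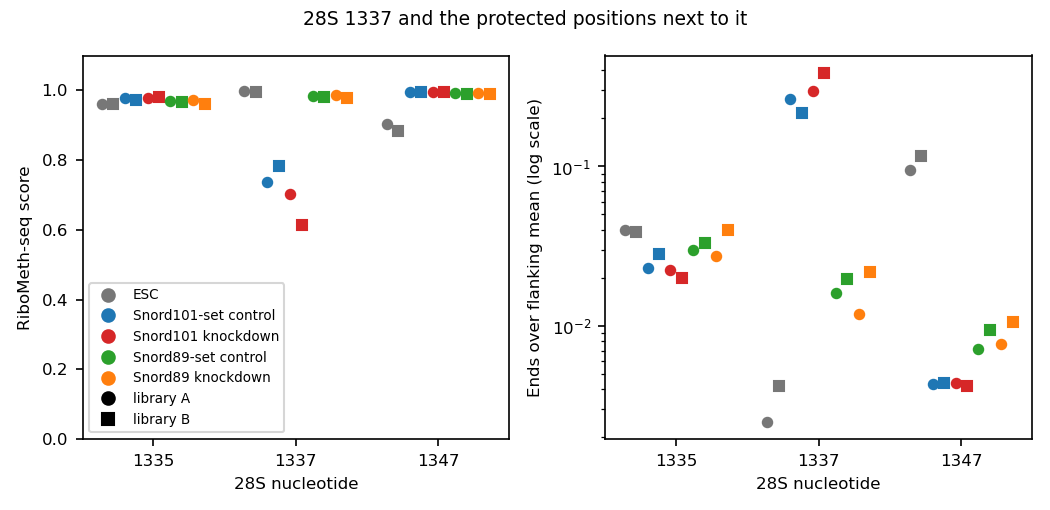
Score (left) and end ratio on a log scale (right) at 28S 1335, 28S 1337 and 28S 1347. Each point is a library, colours are groups and shapes are library A or B. Of these positions 28S 1337 splits the sets, with scores of 0.614 to 0.784 in the Snord101 set and 0.978 to 0.988 in the Snord89 set.

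Differences between the control groups reached many positions. Of the 1577 positions, 215 had enough score and depth to be tested, and 69 of them, or 32.1%, were called by edgeR. Over all tested 45S positions 25% were called. The Snord101-set controls had the higher score, thus fewer ends, at 50 of the 69 and the lower score at 19, where 17.8% and 7.27% of all tested positions were called in these directions. Without a score minimum 466 positions of the region passed, against 18.2% of the 45S. The split by ends depended on the scaling. With library sizes scaled by the trimmed mean of M-values (TMM) in place of the flanking mean, 105 were called. The Snord101-set controls had more ends at 75 of them. That fit compares ends scaled by library size, so its direction is not that of the score or of the end ratio. Over all tested 45S positions 36.5% were called with TMM, 18% with more ends and 18.6% with fewer. The median log2 end ratio over all tested positions was -0.12 and over those of the region -0.11. With TMM the median log2 ratios of scaled ends were -0.03 and 0.22.

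Of the 7 positions at 0.9 or more in all neuron libraries, 28S 399 and 28S 1347 were called as well. The Snord101-set controls were higher by 0.012 and 0.0039 in score, and the log2 end ratios were -0.54 and -0.93 (edgeR adjusted p = 0.0311 and 0.0118). The call at 28S 399 held in 15 of 20 alternatives and in 4 of the 8 fits without a library. It was lost without Snord89 control A, Snord89 control B, Snord89 knockdown A or Snord89 knockdown B, with adjusted p up to 0.206 by edgeR. The call at 28S 1347 held in 16 of 20 alternatives and was lost without Snord89 control B (edgeR adjusted p = 0.0897). Of all 69 calls, 28 held in every fit without 1 library that tested them.

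The named positions of this comparison after 28S 1337 divide by direction. At 28S 1149 the Snord101-set controls scored 0.870 and 0.791 and the Snord89-set controls 0.493 and 0.576 (log2 end ratio -1.46, edgeR adjusted p = 0.00122). At 28S 476 they scored 0.658 and 0.635 against 0.397 and 0.368 (edgeR adjusted p = 0.00154). The other members higher in the Snord101-set controls were 28S 436, 28S 705 and 28S 1245. With TMM scaling 28S 705 and 28S 1245 had more scaled ends in these controls, which leaves their scores unchanged.

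In the opposite direction, 28S 588 scored 0.552 and 0.569 in the Snord101-set controls and 0.819 and 0.788 in the Snord89-set controls (edgeR adjusted p = 0.00068). Its knockdown libraries followed their sets, at 0.544 and 0.516 against 0.818 and 0.783. The consecutive positions 28S 667, 28S 668 and 28S 669 were also lower in the Snord101-set controls. At 28S 668 the scores were 0.354 and 0.407 against 0.821 and 0.726 (edgeR adjusted p = 0.00252). These 3 positions share flanking windows and lie in the sparsest window, where the Snord89-set controls had between 15 and 46 ends at each.

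The sets differ in more than the targeted snoRNA. The Snord101-set controls had 25859649 and 26481807 ends in the region and the Snord89-set controls 16365084 and 16224868. Hydrolysis time is given only as a range of 1 to 12 minutes for all libraries. The part of depth, hydrolysis or batch in these differences was not tested, and set and batch cannot be told apart. Whether both sets came from the same clone or passage of cells is not given in the sources used here, which also touches 28S 1337.

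Gaps were more frequent in the ESC table than in the neuron tables. In ESCs 231 positions, or 14.6%, scored 0.75 or more in both libraries, and 143 of them had at least 100 flanking ends in both. In control neurons 27 positions, or 1.71%, did so in all 4 libraries. The shared positions numbered 20, which is 8.66% of the ESC gaps and 74.1% of those in control neurons. All 20 also held this score in the 4 knockdown libraries. The rest of 28S gave 14.8% in ESCs and 2.62% in control neurons, and 18S gave 11.1% and 2.64%.

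The ESC gaps were often adjacent. They formed 132 runs, of which 79 were single positions, and the longest run was 7 positions, from 28S 73 to 28S 79. The 27 gaps of control neurons formed 23 runs, 21 of them single positions, with the longest from 28S 24 to 28S 26.

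Some ESC gaps were peaks or level positions in the neuron libraries. At 28S 231 both ESC libraries had 0 ends, with a flanking mean of only 7.94 and 5.71 ends, whereas the neuron libraries had 29326 to 55149 ends and an end ratio of 3.25 to 4.74. At 28S 20 the ESC scores were 0.949 and 0.918, with 0 in all 8 neuron libraries and an end ratio of 3.14 to 3.94. The other positions named by this rule were 28S 78, 28S 115 and 28S 228, where the control neuron scores were all 0. The opposite case was seen at 28S 99, which scored 0.157 and 0.107 in ESCs and 0.766 to 0.813 in neurons. At 28S 2, 28S 664, 28S 666 and 28S 1130 control neurons also met the threshold and the ESC libraries did not both do so. At 28S 664 this rested on 2 and 0 ESC ends. Cell type and the kind of end counted cannot be told apart in these differences.

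In the Snord101 knockdown 4 of the 200 positions that could be tested were called, 28S 169, 28S 172, 28S 794 and 28S 797, all with a lower score. This is 2% of those tested, and over all tested 45S positions 1.01% were called in either direction and 0.758% towards more ends. An unadjusted p under 0.05 was reached by 48 positions of the region. The share of all tested 45S positions under it is not given here, so this count does not set the region apart. The median score difference was -0.024 in the region and -0.013 over all tested positions. The call needed a mean score of 0.5 over the 4 libraries, and 65 further positions of the region would enter with that minimum in either group alone.

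At 28S 797 (45S 8919) the controls scored 0.819 and 0.706 and the Snord101 knockdown 0.329 and 0.381. The end ratio rose by 1.44 ± 0.24 (SE) on the log2 scale (edgeR adjusted p = 0.0402). At 28S 794 (45S 8916) the scores fell from 0.822 and 0.736 to 0.489 and 0.438 (log2 end ratio 1.28, edgeR adjusted p = 0.0402). The groups did not overlap at either position.

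At 28S 169 (45S 8291) the controls scored 0.70 and 0.646 and the Snord101 knockdown 0.420 and 0.427 (log2 end ratio 0.82, edgeR adjusted p = 0.0350). At 28S 172 (45S 8294) they scored 0.719 and 0.728 against 0.524 and 0.503 (log2 end ratio 0.81, edgeR adjusted p = 0.0350).

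The ends at the 4 called positions themselves moved less than their flanking means. At 28S 797 there were 13.3 and 13.8 ends per 1000000 45S ends (EPM) in the controls against 13.7 and 12.5 in the Snord101 knockdown. The flanking mean at 28S 797 fell from 73.4 and 47.0 EPM to 20.4 and 20.1, and the next position, the peak 28S 796, fell from 474.7 and 248.8 EPM to 29.6 and 26.9. At 28S 169 the ends were 44.1 and 57.0 EPM in the controls against 48.2 and 54.0 in the knockdown. Its neighbour 28S 170 fell from 442.1 and 513.1 to 117.6 and 157.1. At 28S 794 the ends rose from 13.8 and 14.4 EPM to 15.4 and 17.4, with no overlap of the groups. At 28S 172 they were 37.0 and 39.7 EPM in the controls against 38.6 and 45.7. The lower scores at 28S 169, 28S 172, 28S 794 and 28S 797 thus went with a loss of ends at a peak in their windows.

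None of the 4 calls held when the median of the 12 flanking counts or the TMM-scaled library size replaced the flanking mean. At 28S 797 the log2 change in scaled ends with TMM was -0.06 (edgeR adjusted p = 0.959). Leaving out a library left 1 against 2, so that the spread came from the remaining pair and its sharing across positions. Without control A 22 positions of the region were called and without control B 58, against 7.84% and 22.4% of all tested positions. Without knockdown A or B none was called, against 0.119% and 0.123%, and at 28S 797 the log2 end ratio was then still 1.38 or more.

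Further positions fell in score without being called. The Snord101 knockdown had a mean score lower by at least 0.1, with no overlap of the groups, at 44 of the 200 tested positions. This is 22.0%, with the called positions among them, against 14.8% over the whole table. The mean score was higher by that much at 3, or 1.5%, against 3.73%. At 28S 836 the scores were 0.772 and 0.676 in the controls against 0.416 and 0.450 in the knockdown (edgeR adjusted p = 0.0514). At 28S 792 and 28S 793, which share the window of 28S 796, the mean score difference was -0.26 at each (edgeR adjusted p = 0.0630 at each).

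In the Snord89 knockdown 2 of 177 tested positions were called, 28S 138 and 28S 172, both with a lower score. This is 1.13%, against 0.546% over the whole table in either direction and 0.273% towards more ends. An unadjusted p under 0.05 was reached by 53 positions of the region, again without a share over all tested positions to set it against. At 28S 138 (45S 8260) the controls scored 0.625 and 0.617 and the Snord89 knockdown 0.491 and 0.445 (log2 end ratio 0.49, edgeR adjusted p = 0.0460). At 28S 172 they scored 0.702 and 0.714 against 0.606 and 0.585 (log2 end ratio 0.47, edgeR adjusted p = 0.0465).

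Here too a neighbouring peak fell. At 28S 138 the ends were 32.0 and 36.7 EPM in the controls against 30.0 and 32.3 in the Snord89 knockdown. In its window 28S 133 fell from 240.4 and 280.3 EPM to 78.4 and 73.8. Beside 28S 172, the peak 28S 170 fell from 218.2 and 266.1 to 80.5 and 81.5. Neither call held with the median of the flanking counts or the TMM-scaled library size. At 28S 138 the log2 change in scaled ends with TMM was -0.11 (edgeR adjusted p = 0.710). Leaving out a library of the Snord89 set gave 27 calls in the region without control A, 1 without control B, 32 without knockdown A and 13 without knockdown B. Over all tested positions these fits called 5.04%, 0.208%, 7.05% and 1.98%.

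A mean score lower by at least 0.1 with no overlap was found at 15 of 177 positions in the Snord89 knockdown, or 8.47%, against 6.42% over the whole table. No position was higher by that much, against 4.71% over the whole table. The largest uncalled falls included 28S 1144, from 0.607 and 0.75 to 0.522 and 0.403 (edgeR adjusted p = 0.154), and 28S 1137, from 0.716 and 0.825 to 0.604 and 0.586 (edgeR adjusted p = 0.122). Both have the peaks 28S 1139 or 28S 1146 in their windows.

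**Figure D4:**
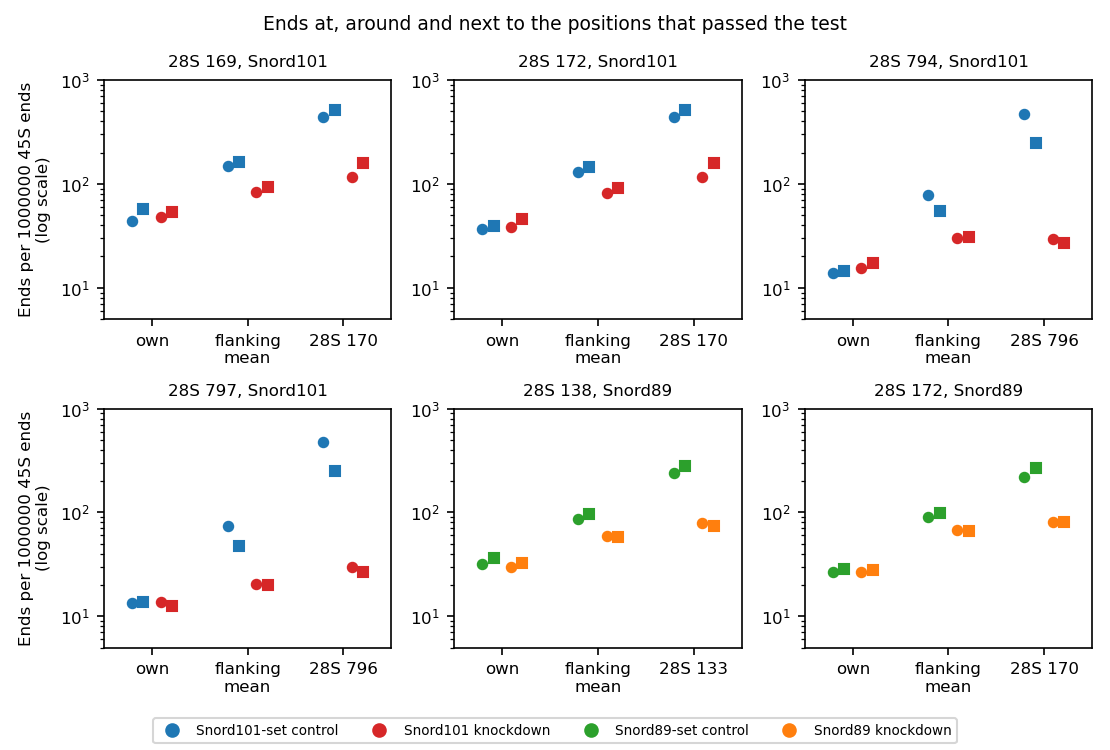
Ends per 1000000 45S ends (EPM, log scale) at each called position (own), in its flanking mean and at the neighbouring peak, in control and knockdown libraries. Own ends move less than the flanking mean, for example from 13.3 and 13.8 to 13.7 and 12.5 at 28S 797. Beside it 28S 796 falls from 474.7 and 248.8 to 29.6 and 26.9.

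The difference between the knockdown effects was tested at 179 positions of the region and called at none, against 0.0725% over the whole table. By edgeR 19 had an unadjusted p under 0.05, for which no share over all tested positions is given, and the lowest adjusted p was 0.483. DESeq2 and limma also called 0. Without a score minimum 2 positions of the region passed, 28S 719 and 28S 1284, against 0.0693% of all positions. With the TMM offset in that fit neither passed (edgeR adjusted p = 0.407 and 0.773).

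A score of 0 hides changes at peaks, so the ends were also tested at all positions without a score minimum. In this fit 21 positions of the region passed in the Snord101 knockdown, 18 with fewer ends and 3 with more. Over all 45S positions 0.369% passed in either direction, 0.277% with fewer ends and 0.0923% with more. In the Snord89 knockdown 12 passed, 11 with fewer ends and 1 with more, and over all positions 0.297% passed in either direction, 0.19% with fewer ends and 0.107% with more. The score was 0 in all 4 libraries at 16 of the 21 and at 8 of the 12. Of the 4 positions called for Snord101 with a score minimum, 28S 172 passed here as well (edgeR adjusted p = 0.0489). The calls at 28S 169, 28S 794 and 28S 797 were lost (edgeR adjusted p = 0.0699, 0.0942 and 0.0971). Both Snord89 calls were lost, at 28S 138 and 28S 172 (edgeR adjusted p = 0.0649 and 0.0672).

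The knockdowns shared 9 of these positions, which is 42.9% of those of Snord101 and 75% of those of Snord89. Over the whole 45S they shared 19, which is 39.6% of 48 and 54.3% of 35, leaving out 4 Snord89 calls in U2, which was not tested for Snord101. The difference in sharing between the region and the rest of the 45S was not tested. Fewer ends were found in both knockdowns at 8 of them, 28S 86, 28S 133, 28S 170, 28S 264, 28S 716, 28S 796, 28S 834 and 28S 1349, and more ends in both at 28S 173. These positions were chosen after their values were seen.

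At 28S 796 (45S 8918) the end ratio was 19.1 and 10.4 in the Snord101-set controls and 1.38 and 1.25 in the knockdown, a log2 change of -3.49 (SE 0.30, edgeR adjusted p = 0.0288). In the Snord89 set it was 5.07 and 7.72 against 2.36 and 1.85, a log2 change of -1.60 (SE 0.20, edgeR adjusted p = 0.0328). The ESC libraries had end ratios of 0.423 and 0.495, below every neuron library. The difference between the knockdowns at 28S 796 gave an edgeR adjusted p of 0.431.

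At 28S 86 (45S 8208) the end ratio was 5.24 and 4.73 in the Snord101-set controls and 1.36 and 1.53 in the knockdown (log2 change -1.79, edgeR adjusted p = 0.00925). In the Snord89 set it was 2.90 and 4.04 against 1.29 and 1.29 (log2 change -1.43, edgeR adjusted p = 0.0120). At both peaks the 4 knockdown libraries were below all 4 control libraries.

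At 28S 133 (45S 8255) the end ratio was 2.79 and 2.69 against 0.824 and 0.976 in the Snord101 set and 2.55 and 2.80 against 1.04 and 0.979 in the Snord89 set. The log2 changes were -1.61 and -1.41 (edgeR adjusted p = 0.00925 and 0.000242). The control groups of the sets differed at 28S 133 by 0.03 ± 0.09 (SE) in log2 end ratio, which was not called (edgeR adjusted p = 0.839). At 28S 170 (45S 8292) the log2 changes were -1.40 and -1.23 (edgeR adjusted p = 0.0220 and 0.000468).

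The highest peaks of the region were not all called. At 28S 1139 the end ratio was 19.8 and 7.10 in the Snord101-set controls, 3.55 and 3.99 in the knockdown, 9.14 and 18.4 in the Snord89-set controls and 6.56 and 5.25 in the knockdown. The knockdown libraries were below the controls of their set, and the controls of each set lay far apart from each other (edgeR adjusted p = 0.200 and 0.225). At 28S 1146 the log2 changes were -1.80 and -0.94 (edgeR adjusted p = 0.0942 and 0.172). At 28S 781 they were -2.44 and -1.43, of which the second passed (edgeR adjusted p = 0.0605 and 0.0398). At 28S 659 the end ratio ran from 3.64 to 5.36 over the neuron libraries and neither knockdown was called (edgeR adjusted p = 0.595 and 0.777).

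Over all 1577 positions the log2 changes of both knockdowns had a Pearson correlation of 0.75, against 0.56 over the 3135 positions of the rest of 28S. This is a description across positions, which share libraries and flanking windows with their neighbours and are not independent. The spread of the log2 changes was 0.37 (SD) for Snord101 and 0.21 for Snord89, and the difference between the control groups had an SD of 0.39.

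**Figure D5:**
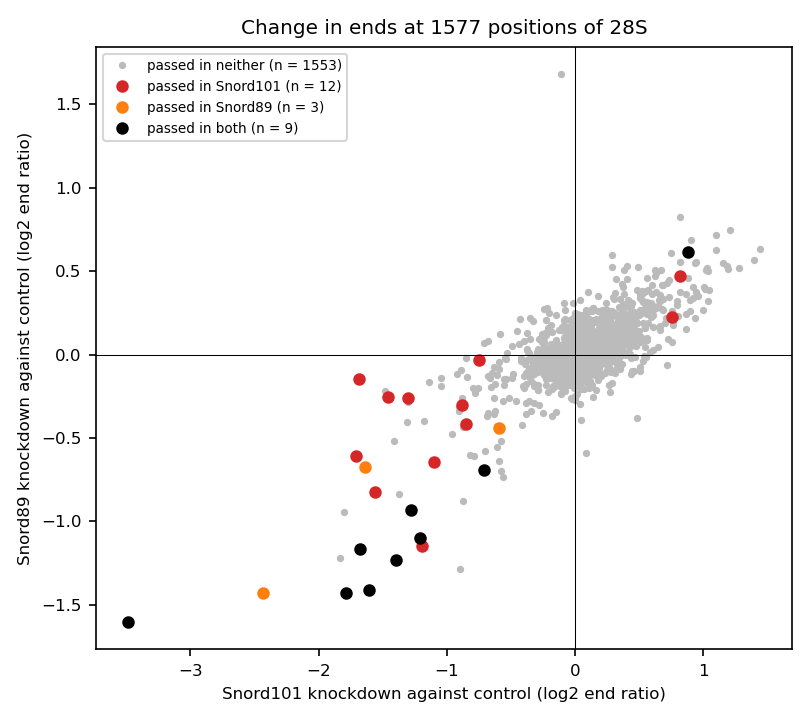
Log2 change in end ratio in the Snord101 knockdown (horizontal) and in the Snord89 knockdown (vertical), each against its own controls, at the 1577 positions of the region. Coloured points passed the test without a score minimum; 9 passed in both, of which 8 had fewer ends in both and 28S 173 had more.

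The number of calls with fewer ends differed with the library left out, again with 1 library against 2. Without Snord101 control A or B it was 89 or 157 in the region, against 3.09% and 8.61% of all positions, and without Snord101 knockdown A or B it was 0, against 0%. Without Snord89 control A or B it was 60 or 22, against 2.27% and 0.473%, and without Snord89 knockdown A or B it was 1 each, against 0.0076%. The log2 changes of the 18 and 11 positions with fewer ends were then 0.819 to 1.16 times the value from all libraries in the Snord101 set and 0.765 to 1.19 times in the Snord89 set.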

How the data were processed

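RiboMeth-seq of 10 mouse libraries was used. The authors deposited counts of read ends per position, as whole numbers, of which the ESC counts are of 5′ ends and the neuron counts of 5′ plus 3′ ends, per the file headers. Their score is a deposited fraction from 0 to 1 for each library. Recomputed from the counts, with weights falling from 1.0 to 0.5, it lay within 1e-06 of the deposited value at 100% of the positions compared. Trim Galore, cutadapt, Bowtie2 and bedtools are named in the submitters' processing notes. Versions and the rRNA reference are not given in the sources used here.

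Tests used edgeR 4.0.16 in R 4.3.3, by quasi-likelihood, with the log flanking mean as offset, on positions of the whole 45S, and of U2 for Snord89, with a mean score of 0.5 or more and 10 or more flanking ends on average. Adjustment was by Benjamini-Hochberg at 0.05. Each knockdown was fitted with its own controls. The difference between knockdowns and that between control groups were fitted over the 8 neuron libraries, whose counts come from 2 tables. The SE is the absolute log2 ratio over the square root of F. DESeq2 1.42.0, limma 3.58.1 and other windows, minimums and offsets were alternatives. With 2 libraries against 2, the smallest two-sided permutation p is 0.333, so no such test was used.

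Positions were named by rule: up to 10 called positions per test by score difference, the 15 with the highest minimum score, up to 5 uncalled per direction and knockdown, the 5 highest peaks, neighbouring peaks of named positions, up to 5 gaps of ESCs or control neurons alone, and the edges. The region is defined by position alone, but region, lists and tests were chosen with earlier results of these data known. The letters A and B were taken to share only a name across groups. Counts cover counting error of PCR reads without molecular identifiers. The sequence of the Snord89 ASO is not reported here.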

Additional observations from a re-analysis of the deposited data

Results flagged for a closer look

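At 28S 719 and 28S 1284 the knockdown effects differed in the test of the difference itself, without a score minimum, where 0.0693% of all positions passed. Both positions were chosen after their values were seen. At 28S 719 the end ratio was 3.08 and 2.48 in the Snord101-set controls and 0.798 and 0.932 in the Snord101 knockdown, a log2 change of -1.68. In the Snord89 set it was 0.657 and 0.676 in the controls against 0.610 and 0.594 in the knockdown, a log2 change of -0.15. The difference between the changes was -1.54 (SE 0.17, edgeR adjusted p = 0.0334).

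At 28S 1284 the end ratio was 3.04 and 2.67 in the Snord101-set controls against 1.02 and 1.05 under the Snord101 ASO, whereas the Snord89 set had 1.06 and 1.16 against 0.881 and 0.983. The log2 changes were -1.46 and -0.25, and their difference was -1.21 (SE 0.13, edgeR adjusted p = 0.0305). The control groups themselves differed at both positions, with a log2 end ratio of 2.06 at 28S 719 and 1.36 at 28S 1284 (edgeR adjusted p = 0.000107 and 0.00015). With the TMM offset and no score minimum the differences between the changes in scaled ends were -2.13 and -1.19 and neither passed (edgeR adjusted p = 0.407 and 0.773). With median flanking counts 28S 719 passed and 28S 1284 did not (edgeR adjusted p = 0.0248 and 0.253). The Snord101-set controls alone were peaks at both, and the part of that difference in the result was not tested.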

How the results depend on the processing

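The limits of the region are depth in ESCs, where 71 positions lacked ends in a library, and replicate number. With 2 libraries a group, none of the 4 Snord101 and 2 Snord89 calls held in every fit without 1 library. Of the 69 calls between control groups 28 did, in fits that cannot be set against those of the knockdowns, since they hold 8 libraries, of which 4 are in neither control group. At 28S 1337 the difference between control groups held in all 20 alternatives.

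The calls of the main tests depended on the processing, and the percentage after each count is the share called over the whole table in that fit. The Snord101 comparison, with 4 calls (1.01%), gave 21 (0.369%) without a score minimum, 2 (5.45%) with the minimum at 0.75, 2 (0.756%) with a flanking minimum of 100, 7 (1.7%) with no flanking minimum, 22 (5.12%) with DESeq2, 0 (0%) with limma on the score, 11 (4.23%) with the TMM offset, 5 of them with more ends, and 26 (6.2%) with 4 groups in 1 fit. Without a score minimum, the median of the flanking counts gave 19 (0.301%) and the TMM offset 21 (0.392%), none of them with more ends. Leaving out a library gave 0 to 58. The Snord89 comparison, with 2 calls (0.546%), gave 4 (0.764%) with a window of 2 positions and 4 (0.858%) with the score minimum in either group, 1 (0.299%) with the median of the flanking counts, 12 (0.297%) without a score minimum and 16 (2.53%) with DESeq2. It gave 0 with a score minimum of 0.75 (0.923%), with a flanking minimum of 100 (0.442%), with no flanking minimum (0.322%), with limma (0.205%), with the TMM offset (0.137%) and with 4 groups in 1 fit (0.0688%). Without a score minimum, the median of the flanking counts gave 14 (0.275%) and the TMM offset 15 (0.259%). Leaving out a library gave 1 to 32. The difference between knockdowns, with 0 calls (0.0725%), gave 2 (0.0693%) without a score minimum and 2 (0.0464%) with median flanking counts as well. With the TMM offset and no score minimum it gave 0 (0.0231%). On leaving out a library it gave calls in the region only without Snord101 control B, where the share over the whole table was also the highest.

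The 69 calls between control groups (25%) became 44 (20%) with a window of 2 positions, 19 (36.8%) with the minimum score at 0.75, 466 (18.2%) without a score minimum, 122 (32.4%) with the minimum in either group, 44 (16.9%) with limma and 105 (36.5%) with the TMM offset. Without a score minimum, the median of the flanking counts gave 510 (20.2%) and the TMM offset 826 (32%). On leaving out a library, the share over the whole table was lowest without Snord89 control A and highest without Snord101 control B. The region's counts were also fewest and most in these fits, so their range does not set the region apart. Leaving out a library gave 38 to 100, the fewest without Snord89 control A.

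With the replicate block, that is, the letters A and B as a term, the Snord101 comparison gave 11 calls (1.77%), the Snord89 comparison 0 (0.205%), the difference between knockdowns 0 (0.0725%) and the control groups 36 (11.1%). The deviations of libraries with the same letter had correlations of -0.059 in the Snord101 set and 0.097 in the Snord89 set. No shared deviation was thus seen, which cannot show whether libraries of a letter were prepared together.

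The 44 positions lower by 0.1 in the Snord101 knockdown became 13 at a difference of 0.2, 262 without a score minimum, 82 with the minimum in either group and 19 with median flanking counts, and 22 to 59 on leaving out a library. The 3 higher became 11 at 0.05, 0 at 0.2 and 44 without a score minimum, and 0 to 6 on leaving out a library. The 15 lower in the Snord89 knockdown became 45 at 0.05, 1 at 0.2, 114 without a score minimum, 26 with the minimum in either group and 3 with median flanking counts, and 10 to 26 on leaving out a library. The count of 0 higher became 6 at 0.05, 23 without a score minimum, 1 with the minimum in either group and 1 with median flanking counts, and 0 to 1 on leaving out a library. For all these alternatives the share over the whole table is not given here, so the counts do not set the region apart.

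The 231 ESC gaps became 457 at a score of 0.5, 112 at 0.9, 143 with a flanking minimum of 100, 145 with a window of 2 positions, 146 with median flanking counts, and 257 to 287 from 1 library. The 27 gaps of control neurons became 149 at 0.5 and 9 at 0.9, and 28 to 33 on leaving out a library. The 20 shared gaps became 115 at 0.5 and 7 at 0.9, and 21 to 24 on leaving out a library. The positions with fewer ends without a score minimum ranged from 0 to 157 for Snord101 and from 1 to 60 for Snord89 on leaving out a library.

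Some positions changed direction in the test they are named for. The TMM offset does not use the flanking mean, so its values are log2 ratios of scaled ends and not log2 end ratios. With the TMM offset 28S 797 went to -0.06, 28S 138 to -0.11, 28S 705 to 0.051 and 28S 1245 to 0.11. With the TMM offset and no score minimum 28S 169 went to -0.010, 28S 797 to -0.078, 28S 138 to -0.084, 28S 705 to 0.028 and 28S 1245 to 0.093. With median flanking counts and no score minimum 28S 797 went to -0.073. None of these passed in the new direction. Of all 69 calls between control groups, 22 changed sign in at least 1 alternative, 5 of them in one other than the TMM offset. Of the 22, 8 passed in the new direction, such as 28S 645, which went from -0.79 to 1.03 with the TMM offset. At 28S 645 the Snord101-set controls had 648 and 537 ends and the Snord89-set controls 177 and 219. The flanking means there were 2338 and 1746 against 345 and 442. The cause of the changes in sign was not tested.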
